A study of Mus musculus with 4 samples.

Results

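The 59 genes described here encode cytoskeletal and adhesion proteins that are abundant in neurons: doublecortins, microtubule-associated proteins, stathmins, growth cone phosphoproteins, collapsin response mediator proteins, kinesins, L1-family molecules, ankyrins and the LIS1 and Reelin migration genes. Tubulins and neurofilaments were left out. The genes were picked by name, with earlier results of these data known. Among the probe sets that the array annotation assigns to a gene alone, the brightest (the highest mean of the 4 arrays) represents it. All 59 were found, out of 18193 genes named in this way, and the member listed as Mtap7 is named Map7 on the array. A newborn neuron first moves along radial fibres with a doublecortin- and LIS1-dependent microtubule cage, and only later builds an axon and dendrites that rely on tau, MAP2, long-distance kinesins and ankyrin-anchored adhesion molecules. On this basis 25 members were listed as early neuroblast genes, 26 as later neurite genes and 8 as broadly expressed in most cell types.

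Expression was measured on Affymetrix arrays in a pair of mouse cell lines with 2 arrays each. NSCL61 is a neural stem cell line of C57BL/6 background from telencephalon of embryonic day 14.5, lacks p53 (p53-/-), and is labelled as resembling glioma-initiating cells. NSCL61-sox11 is its derivative that also expresses Sox11, a SoxC transcription factor of immature neurons, and the submitters state that it no longer forms tumours after transplantation. Both carry the p53 deletion and grew as floating spheres in serum-free medium with insulin, forskolin, PDGF and bFGF; the sources used here do not give the promoter driving Sox11, and NSCL61-sox11 is represented by 1 line. No label states whether the paired arrays of a line represent different cultures. The spread behind the p-values is that among 4 hybridisations, possibly technical only, and this number limits the precision. Levels are the authors' values, read as log2 from their range, and a difference of 1 is 2-fold.

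Sox11 itself lay at 5.09 and 4.82 in NSCL61 and at 7.74 and 7.97 in NSCL61-sox11, a log2 difference of 2.90 (SE 0.14, limma adjusted p = 0.00013), the direction given by the labels; its NSCL61 mean was below the level filter described next. Of 10 neural stem cell markers, 8 passed that filter, 1 rose (Slc1a3) and 1 fell (Vim, by 0.21). Nes lay between 9.31 and 9.51 on every array, while Fabp7 and Prom1 lay below 4.5 throughout. Mature neuron markers had summed linear levels of 1399 to 1456 in NSCL61 and 1508 to 1529 in NSCL61-sox11 over 17 genes. Of the 11 tested, 2 rose (Syt1 and Eno2, both lost without NSCL61 array 1, adjusted p = 0.054 and 0.057) and none fell. Eno2 passed the filter only through NSCL61-sox11. Of the 17 genes, 10 had means above the filter level in both lines. Among them Vamp2 lay at 7.91 to 8.15, Syn1 at 7.45 to 7.97 and Rbfox3 at 7.03 to 7.24. Another 6 lay below that level in both lines, among them Snap25 at 2.61 to 2.94 and Elavl4 at 3.64 to 3.96. Markers of fibroblasts and meninges moved with the line: of 14 genes 11 were tested and 7 rose, and their summed linear levels were 3633 to 4300 in NSCL61 and 6459 to 9868 in NSCL61-sox11. Postn, Fbln1 and Foxc1 lost their call without NSCL61 array 1 (differences of 2.93, 0.36 and 0.50), while Col1a1, Col1a2, Pdgfrb and Igfbp2 kept it with each array left out. After scaling to poly-A spike-in controls, described below, Vim, Slc1a3, Syt1, Col1a2, Fbln1 and Foxc1 were not called (limma adjusted p from 0.088 for Slc1a3 to 0.89 for Fbln1). The fall of Vim was larger with this scaling (-0.62). With hybridisation control scaling Syt1, Fbln1 and Foxc1 were not called (adjusted p = 0.11, 0.32 and 0.13). Summed linear levels also separated the lines for other lists. They were 22810 to 23362 in NSCL61 and 19790 to 21356 in NSCL61-sox11 for the 10 neural stem cell genes, 4717 to 4823 and 4071 to 4599 for 9 astrocyte genes, and 849 to 888 and 674 to 780 for 9 genes of the oligodendrocyte lineage. For 12 endothelial and mural genes they were 603 to 632 and 734 to 845, with a rise of 1.94 for Rgs5 that held with each array left out. For 11 microglia and blood genes, of which 9 lay below the filter in both lines, they were 315 to 316 and 295 to 309. A linear sum mostly follows its brightest gene. That was Vim for the neural stem cell list (means of 14.38 in NSCL61 and 14.17 in NSCL61-sox11) and Gja1 for the astrocyte list (11.97 and 11.85). No tested gene of the astrocyte, oligodendrocyte or microglia lists was called. Arrays of the lines also did not overlap for 62.2% of all tested genes taken singly. The part of these cells or of this programme in the differences below was not tested. In such bulk RNA, fewer cells of a type and less RNA per cell cannot be told apart.

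The members as a group moved in both directions. A probe set was tested when its mean over the arrays was among the highest 60%, which means at least 5.15, and called when its limma p-value, adjusted over all 27022 tested probe sets, was under 0.05. Of the 59 members 48 were tested, 8 rose, 8 fell and 32 did not pass. That is 16.7% in each direction, beside 10.0% up and 9.19% down among all 13084 genes tested (19.2% called in either direction). Because the members were chosen with earlier results of these data known, these shares are a description and no test of the group. The median difference of the tested members was 0.00, beside -0.02 over all genes. Dclk1, Marcks and Fez1 rose at least 2-fold and Uchl1 fell at least 2-fold, beside 3.18% and 1.30% of all genes, while 32 of the 48 tested members differed by less than 0.3. In 35 of 48 members the arrays of the lines did not overlap, a criterion that 62.2% of all tested genes met. The called members lie on 12 chromosomes. Scaling the arrays to their poly-A spike-in controls lowers every difference by 0.404, so that the median of all genes becomes -0.42; 2 members then rose and 7 fell (303 and 1051 of all genes). With the hybridisation controls the median of all genes is -0.24, and 5 members rose and 10 fell (702 and 2336 of all genes). Directions below are on the scale of the deposited values.

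**Figure D1:**
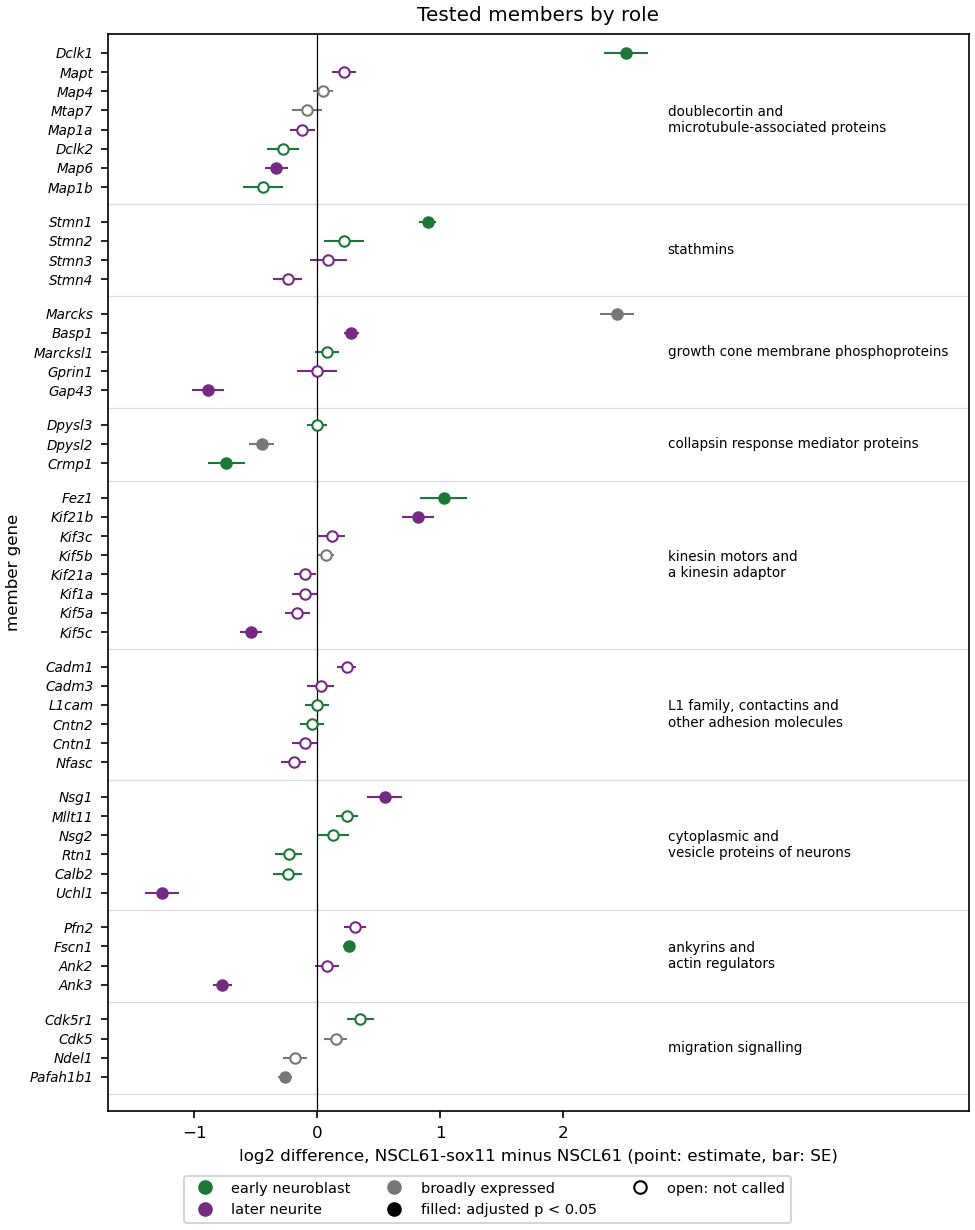
Log2 difference of each tested member between the lines (horizontal axis, NSCL61-sox11 minus NSCL61), grouped by role, with bars for the moderated SE, filled points for called genes and colours for the early, later and broadly expressed lists. Dclk1 at 2.51 and Marcks at 2.44 stand apart on the right, Uchl1 at -1.26 is farthest to the left, and the adhesion molecules lie between -0.19 and 0.24.

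The early and the later lists were set side by side, as counts and medians without a test of the lists. Among the 25 early neuroblast genes 17 were tested, 4 rose (Dclk1, Stmn1, Fez1 and Fscn1), 1 fell (Crmp1) and 12 did not pass, with a median difference of 0.08. Among the 26 later neurite genes 23 were tested, 3 rose (Kif21b, Nsg1 and Basp1), 5 fell (Uchl1, Gap43, Ank3, Kif5c and Map6) and 15 did not pass, with a median of -0.10. Of the 8 broadly expressed members Marcks rose, Dpysl2 and Pafah1b1 fell and 5 did not pass, with a median of -0.01. In the early list 23.5% of tested genes rose and 5.88% fell, and in the later list 13.0% and 21.7%. Among all 13084 tested genes 10.0% rose and 9.19% fell, with a median of -0.02. The early median depended on the arrays: dropping NSCL61-sox11 array 1 turned it to -0.03, and dropping its array 2 gave 0.16, whereas the later one stayed between -0.10 and -0.07 with any array left out. The number of later genes that rose was 0 without NSCL61 array 2 and 1 without its array 1, and it was 5 when NSCL61-sox11 array 1 was dropped. The early and later medians were 0.24 and 0.00 over the brightest 40% of probe sets, and -0.33 and -0.50 with poly-A scaling. The difference between the lists was not tested.

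**Figure D2:**
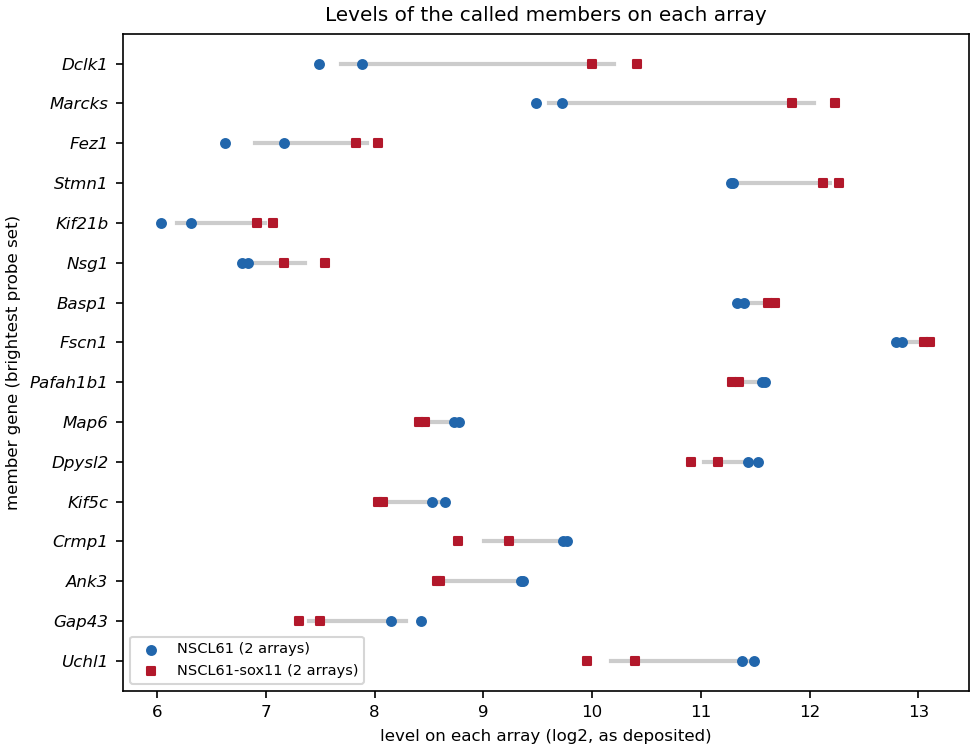
Level of the 16 called members on each of the 4 arrays (horizontal axis, log2 as deposited), circles for NSCL61 and squares for NSCL61-sox11, with a grey line between the line means and genes ordered by their difference. The circles and squares of a gene do not overlap for any called member, and Fez1 has the widest pair of circles, at 6.62 and 7.17.

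Upstream sequence is shown for the 3 members that were called at 2-fold or more and have an entry in the promoter table (Dclk1, Fez1 and Uchl1). It is also shown for Ank2, whose probe sets differed, and for Crmp1, a called fall. Of the 4 falling members with an entry, Crmp1 is the only 1 that held a motif named below. The sequences shown are therefore not typical of the changed members. RefSeq promoter windows of build GRCm38.p6 matched 40 of the 59 members, with 59 windows in all. The 250 bases before the start site were searched on both strands for ACAAAG and ACAATG, core letters bound by SOX proteins, which have the same length and so cannot match at the same position and strand. A match is a description and not a site. The Dclk1 window is chr3:55242114-55242363 on the plus strand, Fez1 chr9:36833324-36833573 plus, Ank2 chr3:127499116-127499365 minus, Crmp1 chr5:37241808-37242057 plus and Uchl1 chr5:66675871-66676120 plus. Dclk1 and Crmp1 have 2 windows each, Fez1 3 and Ank2 4, of which 1 with a match is shown. Each is written 5′ to 3′ with a match to either motif, or to its reverse complement, in capitals.
Dclk1: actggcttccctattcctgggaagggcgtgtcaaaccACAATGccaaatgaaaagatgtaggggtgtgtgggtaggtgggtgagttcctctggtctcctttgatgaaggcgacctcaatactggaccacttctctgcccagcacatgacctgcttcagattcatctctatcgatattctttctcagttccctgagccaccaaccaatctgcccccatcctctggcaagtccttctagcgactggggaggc
Fez1: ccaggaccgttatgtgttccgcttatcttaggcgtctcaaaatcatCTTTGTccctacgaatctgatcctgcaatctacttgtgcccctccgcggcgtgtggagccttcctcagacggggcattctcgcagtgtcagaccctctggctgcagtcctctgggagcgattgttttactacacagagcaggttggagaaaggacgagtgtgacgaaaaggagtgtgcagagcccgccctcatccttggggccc
Ank2: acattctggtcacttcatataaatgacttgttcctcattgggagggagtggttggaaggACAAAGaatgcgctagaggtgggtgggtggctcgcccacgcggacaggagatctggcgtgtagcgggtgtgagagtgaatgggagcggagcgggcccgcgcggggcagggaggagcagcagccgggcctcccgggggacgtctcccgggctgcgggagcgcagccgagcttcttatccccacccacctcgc
Crmp1: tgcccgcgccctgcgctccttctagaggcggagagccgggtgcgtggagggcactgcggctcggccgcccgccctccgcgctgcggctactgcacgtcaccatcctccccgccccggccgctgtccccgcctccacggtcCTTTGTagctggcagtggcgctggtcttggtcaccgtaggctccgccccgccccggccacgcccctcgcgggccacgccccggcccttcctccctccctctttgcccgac
Uchl1: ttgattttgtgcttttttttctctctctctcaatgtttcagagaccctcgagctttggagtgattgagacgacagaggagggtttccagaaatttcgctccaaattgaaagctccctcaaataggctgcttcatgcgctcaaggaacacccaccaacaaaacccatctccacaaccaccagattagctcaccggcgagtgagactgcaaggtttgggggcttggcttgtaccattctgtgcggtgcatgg
The Dclk1 window holds ACAATG, the Fez1, Ank2 and Crmp1 windows hold ACAAAG, each on one of the strands, and the Uchl1 window holds neither. Either motif occurred in 30.5% of the 59 member windows, beside 25.2% of all 32851 windows of this length in the table. Among windows of rising members 2 of 7 held one, among those of falling members 2 of 5, both of Crmp1, and among members that were tested and not called 9 of 34. ACAAAG alone was found in 23.7% of member windows and 16.5% of all windows, and ACAATG in 10.2% and 10.7%.

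Doublecortin-family and microtubule-associated proteins bind along microtubules and stabilise them. Dclk1, a doublecortin-like kinase of neural progenitors and migrating neurons, lay at 7.49 and 7.88 in NSCL61 and at 10.00 and 10.41 in NSCL61-sox11. Both arrays of the derivative were far above both parental arrays, a 5.71-fold rise (log2 difference 2.51, SE 0.18, adjusted p = 0.00051). All 6 of its tested probe sets were called upwards, with differences from 1.19 to 3.01, and each kept its call with any array left out. For 1435940_at and 1450863_a_at, which had the smallest rises, the NSCL61 mean lay below 5.15, so these passed the filter through the level in NSCL61-sox11. Its relative Dclk2 lay at 7.06 and 7.35 against 6.97 and 6.88, a difference of -0.28 (SE 0.13) that did not pass (adjusted p = 0.18). Dcx, the doublecortin gene of migrating neuroblasts, was not tested: all 4 of its probe sets lay between 3.63 and 4.42 on every array, and in a fit of all probe sets its brightest differed by 0.07 (SE 0.12, adjusted p = 0.82).

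Map6, which protects microtubules from cold, lay at 8.78 and 8.73 in NSCL61 and at 8.41 and 8.46 in NSCL61-sox11, and fell by 0.33 (SE 0.09, adjusted p = 0.049). This call was lost with any array left out, where the difference was -0.35 to -0.30. It was also lost without a level filter (adjusted p = 0.065). With poly-A scaling, which makes falls larger, it was lost as well (adjusted p = 0.092). The other tested probe set differed by -0.11 (adjusted p = 0.57). Map1b, an early axonal MAP, lay at 9.72 and 9.53 against 8.96 and 9.41, a difference of -0.44 that did not pass (SE 0.16, adjusted p = 0.11); without NSCL61-sox11 array 2 it was -0.66 and called (adjusted p = 0.0077). The mean of its tested probe sets fell by 0.54 (adjusted p = 0.039), and 1421850_at, below the filter, fell by 0.45 in the fit of all probe sets (adjusted p = 0.043). Its second tested probe set 1421851_at fell by 0.64 (SE 0.12, adjusted p = 0.014), a call lost without either NSCL61 array (adjusted p = 0.077 and 0.10). The brightest probe sets of Map4, a broadly expressed MAP, of Mapt, the gene of tau, of Map1a and of Mtap7 differed by 0.05, 0.22, -0.12 and -0.08 and did not pass. On 1416091_at Map4 rose by 0.42 (SE 0.10, adjusted p = 0.038), which was lost without either NSCL61 array or without NSCL61-sox11 array 2 (adjusted p = 0.24, 0.12 and 0.10).

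Map2, the dendritic MAP, lay below the level filter on all 4 of its probe sets, which were therefore followed in the fit of all probe sets. There 1434194_at read 2.77 and 3.02 in NSCL61 and 4.44 and 5.10 in NSCL61-sox11 and rose by 1.88 (SE 0.21, adjusted p = 0.0020), and the difference stayed between 1.55 and 2.20 with any array left out. The other 3 Map2 probe sets differed by 0.14, 0.35 and -0.04 and were not called, and since all readings lie near the floor the size of the change is uncertain. In that fit 6.94% of all 18193 genes rose on their brightest probe set and 6.01% fell. None of the 11 members without a tested probe set, which are Dcx, Map2, Dpysl4, Dpysl5, Chl1, Nrcam, Cntnap2, Astn1, Tagln3, Reln and Dab1, was called there on its brightest probe set.

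**Figure D3:**
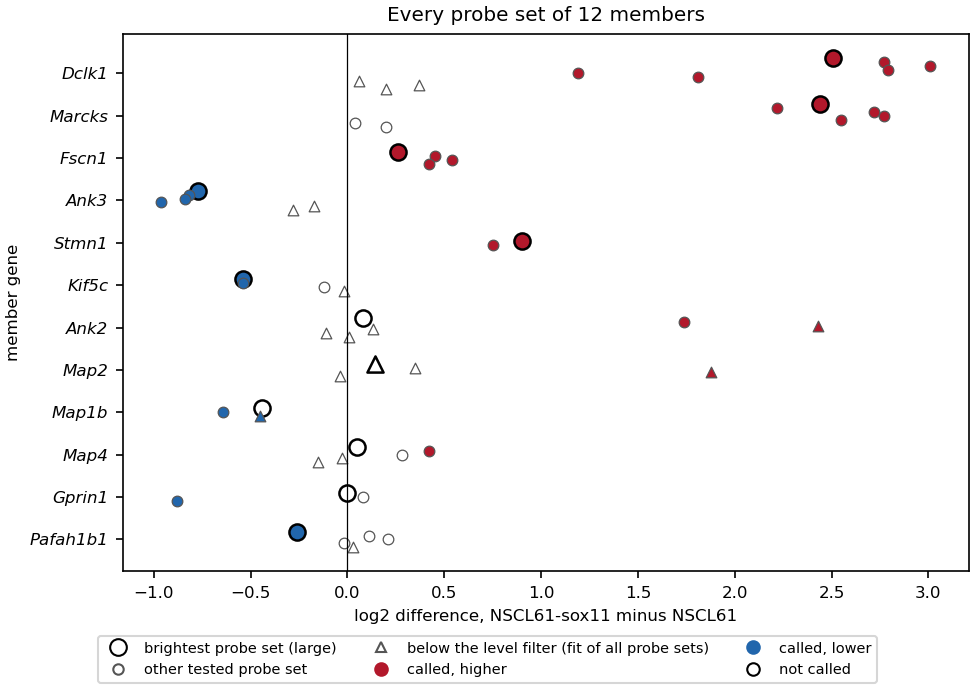
Log2 difference (horizontal axis, NSCL61-sox11 minus NSCL61) of every probe set of 12 members, with a large symbol for the brightest, circles for tested probe sets, triangles for those below the level filter, and red or blue for called rises or falls. All probe sets of Fscn1 and 6 of the 9 of Dclk1 are called upwards, whereas the brightest Ank2 and Map2 probe sets lie near 0 and others of the same gene lie at 1.74 to 2.43 and at 1.88.

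Stathmins bind free tubulin dimers and promote microtubule disassembly. Stmn1, the member found in proliferating progenitors and newborn neurons, lay at 11.28 and 11.30 in NSCL61 and at 12.27 and 12.12 in NSCL61-sox11. Its arrays agreed closely within each line, and it rose 1.87-fold (log2 difference 0.90, SE 0.07, adjusted p = 0.00075). The name of that probe set, 1415849_s_at, marks it as one that may match related transcripts, and the gene's second probe set rose by 0.75 (adjusted p = 0.017), a call lost without either NSCL61 array (adjusted p = 0.074 and 0.11). With poly-A scaling the difference of Stmn1 was 0.50 and not called (adjusted p = 0.20). Stmn2, Stmn3 and Stmn4, the stathmins of postmitotic neurons, lay between 5.33 and 6.03 on all arrays and did not pass, with differences of 0.22, 0.09 and -0.24 (SE 0.16, 0.15 and 0.12).

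Marcks, Basp1 and Gap43 are acidic proteins that coat the inner face of the growth cone membrane and are substrates of protein kinase C or bind calmodulin. Marcks lay at 9.48 and 9.72 in NSCL61 and at 11.84 and 12.23 in NSCL61-sox11. It rose 5.42-fold (log2 difference 2.44, SE 0.14, adjusted p = 0.00025), and 5 of its 7 probe sets rose by 2.22 to 2.77. The remaining pair, 1437034_x_at and 1430311_at, differed by 0.04 and 0.20 and were not called. Its relative Marcksl1 lay at 10.72 and 10.71 against 10.92 and 10.67, and all 4 of its probe sets differed by -0.14 to 0.08 without passing.

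Gap43, the growth-associated protein of regenerating axons, went the other way from Marcks: it lay at 8.15 and 8.43 in NSCL61 and at 7.50 and 7.30 in NSCL61-sox11. This is a 1.86-fold fall (log2 difference -0.89, SE 0.13, adjusted p = 0.0074) on its only probe set. Basp1 lay at 11.40 and 11.33 against 11.62 and 11.68 and rose by 0.28 (SE 0.06, adjusted p = 0.030). This was lost without either NSCL61 array (adjusted p = 0.15 and 0.24). With hybridisation control scaling the difference was 0.07 (adjusted p = 0.77), after median centring it was not called (adjusted p = 0.067), and with poly-A scaling the sign turned to -0.12. Gprin1, which acts with G proteins in neurite outgrowth, differed by 0.00 on its brightest probe set (SE 0.16, adjusted p = 1). On 1424137_at, however, it lay at 5.97 and 6.66 against 5.42 and 5.45 and fell by 0.88 (SE 0.22, adjusted p = 0.038), a call lost without NSCL61 array 2 or either NSCL61-sox11 array (adjusted p = 0.086, 0.057 and 0.053).

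The collapsin response mediator proteins are cytosolic phosphoproteins that link semaphorin signals to microtubules. Crmp1 lay at 9.73 and 9.77 in NSCL61 and at 8.77 and 9.24 in NSCL61-sox11 and fell 1.67-fold (log2 difference -0.74, SE 0.15, adjusted p = 0.022). The arrays of the derivative were the less alike pair, and both lay below the parental arrays. The difference was -0.51 to -0.97 with an array left out, and the call was lost without NSCL61 array 1 or 2 (adjusted p = 0.11 and 0.12). Dpysl2, the gene of CRMP2, lay at 11.43 and 11.53 against 10.91 and 11.16 and fell by 0.45 (SE 0.10, adjusted p = 0.027), also lost without either NSCL61 array (adjusted p = 0.11 and 0.18). Its second probe set differed by 0.04, and the mean of both by -0.21 (adjusted p = 0.14). Dpysl3 lay between 11.46 and 11.61 on all arrays with a difference of 0.00 (SE 0.08, adjusted p = 0.99), and Dpysl4 and Dpysl5 were below the filter.

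Kinesins carry vesicles and organelles along microtubules. Fez1, an adaptor between kinesin-1 and its cargo, lay at 6.62 and 7.17 in NSCL61 and at 7.83 and 8.03 in NSCL61-sox11 and rose 2.05-fold (log2 difference 1.03, SE 0.19, adjusted p = 0.015). The parental arrays were the less alike pair, and the difference was 0.76 to 1.31 with an array left out and 0.63 with poly-A scaling (adjusted p = 0.17). Kif21b, a kinesin-4 motor that slows microtubule growth, lay at 6.31 and 6.04 against 6.92 and 7.07 and rose 1.76-fold (log2 difference 0.82, SE 0.13, adjusted p = 0.0089). Leaving out NSCL61 array 2 ended the call (adjusted p = 0.054), as did poly-A scaling (0.41, adjusted p = 0.30). Kif5c, a neuronal kinesin-1 heavy chain, fell: it lay at 8.53 and 8.65 against 8.03 and 8.08 (log2 difference -0.54, SE 0.09, adjusted p = 0.012), with the same difference on 1450804_at (adjusted p = 0.039) and -0.12 on 1422945_a_at. Without NSCL61 array 1 or 2 neither of the called probe sets passed (adjusted p = 0.065 and 0.11 on the brightest). Its ubiquitous relative Kif5b differed by 0.07 (SE 0.07) and by -0.10 to 0.17 over its 5 tested probe sets. Kif5a, Kif1a, Kif3c and Kif21a differed by -0.16, -0.10, 0.12 and -0.10, with no call.

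The cell adhesion molecules of the L1, contactin and nectin-like families bind axons to each other and to glia. Of these 10 members 6 were tested and none was called by limma, and none had an unadjusted p under 0.05 except Cadm1. L1cam lay at 6.36 and 6.26 in NSCL61 and at 6.33 and 6.28 in NSCL61-sox11, a difference of 0.00 (SE 0.10). Cadm1, a synaptic and epithelial adhesion molecule, lay at 10.64 and 10.71 against 10.82 and 11.00, a difference of 0.24 (SE 0.08, adjusted p = 0.11), and was called without NSCL61-sox11 array 1 (0.32, adjusted p = 0.033). Nfasc, Cntn1, Cntn2 and Cadm3 differed by -0.19, -0.10, -0.04 and 0.03. Chl1, Nrcam, Cntnap2 and Astn1 did not reach the filter, and their brightest probe sets lay between 3.48 and 4.54 on all arrays.

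Ankyrins tie such adhesion molecules and ion channels to the spectrin skeleton. Ank3, the gene of ankyrin-G, which assembles the axon initial segment, lay at 9.35 and 9.36 in NSCL61 and at 8.60 and 8.57 in NSCL61-sox11. The arrays of a line were nearly equal, and it fell 1.70-fold (log2 difference -0.77, SE 0.08, adjusted p = 0.0024), with all 4 tested probe sets called and falls of 0.77 to 0.96, of which 1452872_at alone lost its call when an NSCL61 array was left out (adjusted p = 0.076 and 0.13). Ank2, the gene of ankyrin-B, was not called on its brightest probe set, 1459317_at, where it lay at 5.68 and 5.62 against 5.70 and 5.75 (difference 0.08, SE 0.10, adjusted p = 0.66). On 1434265_s_at it lay at 4.50 and 4.59 in NSCL61 and at 6.23 and 6.35 in NSCL61-sox11 and rose 3.35-fold (log2 difference 1.74, SE 0.11, adjusted p = 0.00030). The probe set passed the filter only through NSCL61-sox11. On 1434264_at, just below the filter, readings of 3.71 and 3.91 became 6.30 and 6.19, a rise of 2.43 (SE 0.12, adjusted p = 5.6e-05 in the fit of all probe sets). The other 3 Ank2 probe sets read 2.86 to 3.39 throughout. The choice of probe set thus decides whether Ank2 counts as changed.

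Fscn1 bundles actin in filopodia, and Pfn2 is the neuronal profilin. Fscn1 lay at 12.79 and 12.85 in NSCL61 and at 13.11 and 13.05 in NSCL61-sox11 and rose by 0.26 (SE 0.05, adjusted p = 0.019). All 4 of its probe sets were called, with rises up to 0.54, but each lost the call without either NSCL61 array, and the brightest was at 0.04 with hybridisation control scaling (adjusted p = 0.84) and turned to -0.15 with poly-A scaling. Pfn2 lay at 11.09 and 11.22 against 11.38 and 11.55, a difference of 0.31 that did not pass (SE 0.09, adjusted p = 0.057) and that was called without NSCL61-sox11 array 1 (0.40, adjusted p = 0.016), as it was after quantile normalization (0.35, adjusted p = 0.044).

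Among cytoplasmic and vesicle proteins of neurons, Uchl1, an abundant neuronal ubiquitin hydrolase, had the largest fall of all tested members. On its only probe set it lay at 11.38 and 11.49 in NSCL61 and at 9.95 and 10.39 in NSCL61-sox11 (log2 difference -1.26, SE 0.14, adjusted p = 0.0029). Nsg1, an endosomal protein that sorts neurotransmitter receptors, lay at 6.84 and 6.78 against 7.17 and 7.54 and rose by 0.55 (SE 0.14, adjusted p = 0.044). Leaving out NSCL61 array 1 or 2 or NSCL61-sox11 array 2 ended the call (adjusted p = 0.16, 0.19 and 0.11), and the last of these lowered the difference to 0.36. It was also not called without a level filter (adjusted p = 0.052), after quantile normalization (0.061), or with poly-A (0.14, adjusted p = 0.71) or hybridisation control scaling (0.33, adjusted p = 0.18). Its relative Nsg2 differed by 0.13. Mllt11, a small protein of postmitotic neurons, the reticulon gene Rtn1 and Calb2, the gene of calretinin, differed by 0.24, -0.23 and -0.24 and did not pass. Tagln3 lay at 5.04 to 5.16 on all arrays, just under the filter.

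The migration genes act through dynein and Reelin. Pafah1b1 encodes LIS1, the dynein regulator whose loss gives lissencephaly, and lay at 11.59 and 11.56 in NSCL61 and at 11.29 and 11.35 in NSCL61-sox11, a fall of 0.26 (SE 0.06, adjusted p = 0.038). It rested on 1 of 4 tested probe sets: the other three differed by 0.11, 0.21 and -0.02, and the mean of all 4 by 0.01 (adjusted p = 0.94). The call was also lost without NSCL61 array 1 or 2 or NSCL61-sox11 array 1. With an array left out the difference was -0.29 to -0.22. Without a level filter (adjusted p = 0.052) and after quantile normalization (0.053) the call was lost too. The same held with poly-A scaling (0.10), which makes falls larger. Ndel1, a partner of LIS1, differed by -0.18 (SE 0.10) on its brightest probe set. On 1424893_at it differed in the other direction, by 0.43 (SE 0.16, adjusted p = 0.12), and neither was called. Cdk5, the kinase that phosphorylates doublecortin and NDEL1, differed by 0.15 (SE 0.09). Its activator Cdk5r1 lay at 7.06 and 7.17 against 7.55 and 7.38, a difference of 0.35 that did not pass (SE 0.11, adjusted p = 0.075). Reln and its intracellular adaptor Dab1 lay at 4.59 to 4.72 and at 5.01 to 5.10 on their brightest probe sets and were not tested.

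Of the 16 called members, Dclk1, Marcks, Fez1, Stmn1, Uchl1, Gap43 and Ank3 were called in all 4 fits that leave out an array, and 9 lost the call in at least 1. Without NSCL61 array 1 there were 8 called members and without array 2 there were 7, beside 1639 and 1701 of all probe sets in place of 4678. Among the 7 genes that kept the call without each array, Fez1 and Gap43 came closest to the cut-off. Dclk1, Marcks, Uchl1, Gap43 and Ank3 were in addition called under each other alternative that gave a value. Uchl1 and Gap43 have 1 probe set each, so alternatives in the choice of probe set could not change their differences. Without an intensity trend in limma, Map6, Basp1, Dpysl2, Nsg1, Fscn1 and Pafah1b1 were not called. Among the 9 called members with more than 1 tested probe set, every tested probe set was called the same way in 4 (Dclk1, Stmn1, Ank3 and Fscn1), and no member had probe sets called in opposite directions. Over all 110 tested probe sets of the members 23 rose and 14 fell, beside 8.99% and 8.32% of all tested probe sets; Dclk1 and Marcks alone account for many of the rises, since their probe sets share a gene.

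**Figure D4:**
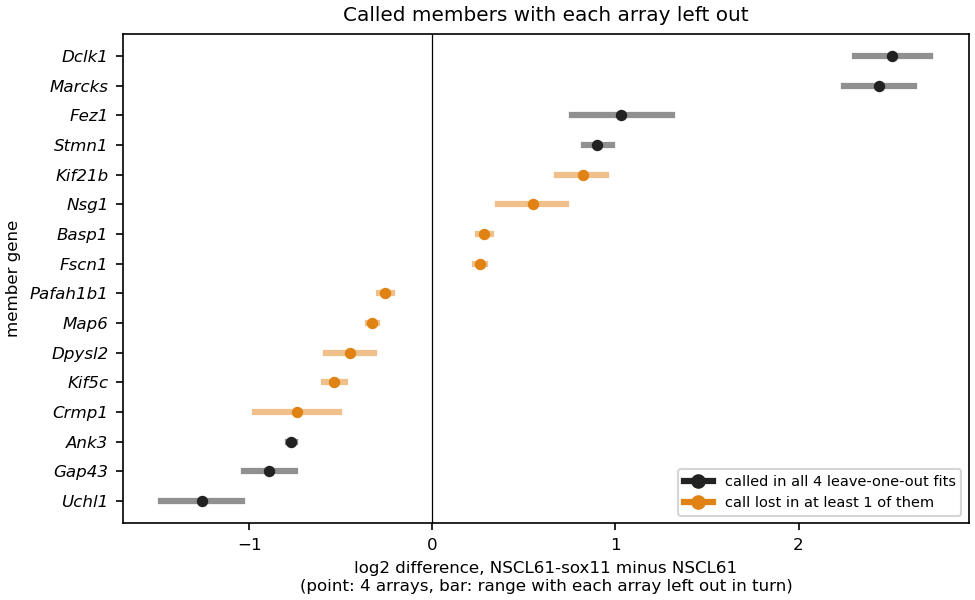
Log2 difference of the 16 called members (horizontal axis, NSCL61-sox11 minus NSCL61), with a point for all 4 arrays and a bar for the range over the fits without each array, dark where the call held in all 4 of these and orange where at least 1 lost it. No bar reaches 0, the bars of Crmp1 (-0.97 to -0.51) and Fez1 (0.76 to 1.31) are among the widest, and 7 genes are dark.

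Partners of the members in the same processes were taken from 7 lists of genes that are no members. Of these 136 genes 118 were tested, 15 rose and 12 fell, which is 12.7% and 10.2%, near the 10.0% and 9.19% of all genes, and 6 of the 27 calls held with each array left out: Pak3, Ablim1, Epb41l3, Epb41l2, Dbn1 and Cntnap4. Among 21 tested growth cone actin regulators 2 rose and 4 fell. Pak3, a kinase downstream of Rac and Cdc42, lay at 6.11 and 6.16 in NSCL61 and at 9.31 and 9.06 in NSCL61-sox11, an 8.26-fold rise (log2 difference 3.05, adjusted p = 9.9e-05). Ablim1, an actin-binding LIM protein, rose from 5.92 and 5.76 to 8.52 and 8.90 (log2 difference 2.87, adjusted p = 0.00016). Dbn1, the gene of drebrin, which links actin to microtubules in the growth cone, lay at 8.65 and 8.68 against 7.36 and 7.56 and fell 2.31-fold (adjusted p = 0.0011).

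Of 10 spectrin, adducin and protein 4.1 genes, which work with ankyrins, 2 rose and none fell. Epb41l3 lay at 7.69 and 7.81 in NSCL61 and at 10.10 and 10.01 in NSCL61-sox11 and rose 4.93-fold (adjusted p = 0.00010), and Epb41l2 rose by 0.65 (adjusted p = 0.0043). The Epb41l2 difference was 0.24 with poly-A scaling (adjusted p = 0.48) and 0.43 with hybridisation control scaling (adjusted p = 0.055), and not called with either. Of 13 Reelin receptors and adaptors 2 rose and none fell. The Reelin receptor gene Vldlr lay at 4.54 and 5.12 against 5.67 and 6.03 (log2 difference 1.02, adjusted p = 0.025), passing the filter through NSCL61-sox11, and the kinase subunit gene Pik3r1 rose by 0.67 (adjusted p = 0.0094); Vldlr lost its call without NSCL61 array 1 or NSCL61-sox11 array 2 (adjusted p = 0.093 and 0.051) and Pik3r1 without NSCL61 array 1 (adjusted p = 0.080).

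Of 18 LIS1, NUDEL and dynein partners 2 rose and 1 fell, with changes of 0.63 for Cables1, which passed the filter only through NSCL61-sox11, 0.42 for Dctn2 and -0.32 for Dync1li1. Of 20 tested other kinesins and light chains 2 rose and 1 fell: Kif26b, which lay at 6.17 and 7.03 against 7.86 and 9.13, rose by 1.89, the mitotic motor gene Kif11 by 0.47, and Klc1 changed by -0.35. Among 26 tested other microtubule regulators 4 rose and 4 fell, and the named examples are Mid1 (1.49), Clip3 (0.51) and Mark3 (-0.42). Mid1 read 5.03 and 5.04 in NSCL61 and passed the filter only through NSCL61-sox11. Of 22 other neural adhesion genes 10 were tested, and Cntnap4 fell by 0.80 (adjusted p = 0.0034) and Nectin2 by 0.54, while Nptn rose by 0.44. Each called gene of these 4 lists except Cntnap4 lost its call at least when NSCL61 array 1 was left out. With poly-A scaling Vldlr, Pik3r1, Cables1, Dctn2, Dync1li1, Kif11, Klc1, Clip3 and Nptn were not called either (adjusted p from 0.076 for Klc1 to 0.97 for Dctn2). The falls of Dync1li1 and Klc1 were larger with this scaling (-0.72 and -0.75). With hybridisation control scaling Pik3r1, Cables1, Dctn2, Kif11, Clip3 and Nptn were not called (adjusted p from 0.053 for Pik3r1 to 0.39 for Dctn2).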

How the data were processed

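Total RNA of 2 samples each of NSCL61 and NSCL61-sox11 received a biotin label through in vitro transcription and was measured on Affymetrix M430_2 arrays, per the labels. The deposited log2 values are the authors' processed levels of 45101 probe sets per array, from 2.13 to 14.62; log2 is inferred from this range, and the summarisation, normalization and genome build are not given in the sources used here. No further scaling was applied. Depth does not apply to arrays.

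Gene symbols come from GEO's annotation of the platform: 34945 non-control probe sets have 1 symbol, 932 several and 9160 none, and only the first were named. limma 3.58.1 in R 4.3.3 (lmFit, eBayes with an intensity trend, two-sided) was fitted to the 27022 non-control probe sets with the highest means, with Benjamini-Hochberg adjustment over all of them; 64 control probe sets were left out. There are 2 residual degrees of freedom, 6.36 after moderation. Errors are moderated SE. A fit of all 45037 non-control probe sets is named where used.

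The members and lists were chosen with earlier results of these data known. The genes named are all members, Sox11, and up to 3 called genes of each partner list with the largest change; the choice of promoters shown followed the values. The alternatives are the level filter, scaling, trend, choice of probe set, each array left out, and a replicate block. The limma fit was tested on simulated data. Figures were drawn with matplotlib 3.10.9.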

Additional observations from a re-analysis of the deposited data

How the results depend on the processing

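With 2 arrays a line the calls are sensitive to leaving out an array. The lone array of that line is then assumed to vary like those of the other line, and 1 residual degree of freedom remains. A call can thus be lost while the difference changes little, as for Map6 (-0.35 to -0.30) and Kif5c (-0.59 to -0.48). Other differences moved more, such as that of Crmp1 (-0.97 to -0.51). Of the called members 7 kept their call without each array in turn, and 5 of these also under every other alternative that gave a value. Leaving out an array gave 1639 to 4947 probe sets, 7 to 16 members called (4 to 10 up and 3 to 9 down), an early median of -0.03 to 0.16 with 3 to 4 genes up and 0 to 2 down, and a later median of -0.10 to -0.07 with 0 to 5 up and 3 to 4 down. Poly-A control scaling gave 2553 probe sets, 9 members (2 up, 7 down), an early median of -0.33 (1 up, 2 down) and a later one of -0.50 (0 up). It turned Basp1 to -0.12 and Fscn1 to -0.15. Hybridisation control scaling gave 5 members up, early and later medians of -0.14 and -0.32, 3 early genes down and 1 later gene up. On each array these scalings move all genes alike, but the amount is set array by array. They can thus change the spread within a line as well as the difference between the lines. Without a trend 10 members were called (5 up, 5 down), 1 later gene among the rises. The early and later medians were 0.00 and -0.07 without a level filter, where genes with low readings enter, and 0.24 and 0.00 with the brightest 40% of probe sets. With the mean of the probe sets of a gene the early median was 0.00 with 2 down, and Pafah1b1 turned to 0.01, as it did, to 0.11, without _x_at, _s_at and _a_at probe sets; for the other shifts the cause was not tested. The titles number the arrays 1 and 2 in both lines without saying that a number is shared. Deviations of same-numbered arrays correlated at 0.415 over tested probe sets, and with only 2 numbers this does not pair them. The replicate block, with 1 residual degree of freedom, raised the count to 9227 probe sets and 22 members, with 3 early genes down and 5 later genes up, and ended no member's call.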
